A study of Sorghum bicolor with 24 samples.

Results

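The epidermis of the sorghum stem was compared with its xylem sclerenchyma, the outer cell layer against the fibre cells inside the vascular bundles. The comparison used the 8 libraries that carry these names, 4 per cell type, out of 24 libraries in the series, and all 34117 genes of the count table. The plants were *Sorghum bicolor* cv. Wray, a sweet sorghum, with no mutation or treatment in either group. They were grown in a greenhouse on 14-h days and sampled at 74 days, before flowering, at the internode of phytomer 8, the youngest one that had finished elongating. Material came from 4 plants. Cells of each type were cut out of 20 µm frozen sections by laser capture microdissection, and their RNA was reverse transcribed and amplified as full-length cDNA before sequencing. The collection protocol describes the sclerenchyma samples as xylary fibre cells, and it lists xylem parenchyma where the library names have vascular parenchyma. The other 4 groups of the series, pith parenchyma, vascular parenchyma, phloem and bulk whole stem, had 4 libraries each and are used below only to place the genes that differed.

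The epidermis is a living surface layer that makes cutin and very-long-chain waxes and exports them to form the cuticle, the barrier that limits water loss from the stem. Xylem fibres stiffen the stem. They lay down a thick secondary wall of cellulose, xylan and lignin inside the first wall, and in grasses they commonly lie as a sheath around the vessels and phloem of each bundle. The genes in the table are printed by identifier, because the identifiers were not matched to gene names or products here. Cuticle genes, secondary wall genes and markers of neighbouring cell types were therefore not examined, and the cell type labels were not checked against markers.

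The 8 libraries differed in depth and, within the epidermis, in how many genes they contained. Replicates 1 and 2 of epidermis held 9706378 and 10516417 estimated counts, and replicates 3 and 4 held 38880291 and 33400447. In xylem sclerenchyma the replicates 1 to 4 held 5483186, 7508563, 28158378 and 27506995. Genes above 1 CPM, the count scaled to a library total of 1000000, numbered 10439 and 10911 in epidermis replicates 1 and 2, against 16108 and 16327 in replicates 3 and 4. The 4 xylem sclerenchyma libraries lay between 14072 and 16467, with epidermis replicates 3 and 4 inside that range and replicates 1 and 2 below it. The means were 13446 ± 3207 in epidermis and 15247 ± 985 in xylem sclerenchyma (SD, n = 4 each), a difference that did not exceed the spread (two-sided exact permutation test, p = 0.371, and 0.743 after Benjamini-Hochberg adjustment over 6 library measures; the smallest p this design allows is 0.0286).

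With every library thinned to 2769545 counts, epidermis replicates 1 and 2 had 10437 and 10941 genes above 1 CPM, and replicates 3 and 4 had 16104 and 16329. The gap was as large at equal depth. The shallowest xylem library, replicate 1, had the most genes of its group. Genes that reached 10 CPM in one library of a type and were at 0 in another made up 39.3% of 13956 in epidermis and 17.9% of 14369 in xylem sclerenchyma, compared with 0.0375% of 13320 in whole stem. The biological coefficient of variation, the spread between replicates beyond counting error, was 1.61 in epidermis, 1.24 in xylem sclerenchyma and 0.288 in whole stem. Values without epidermis replicates 1 and 2 are given below for the counts of detected and called genes and for the placing of called genes in other groups.

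**Figure D1:**
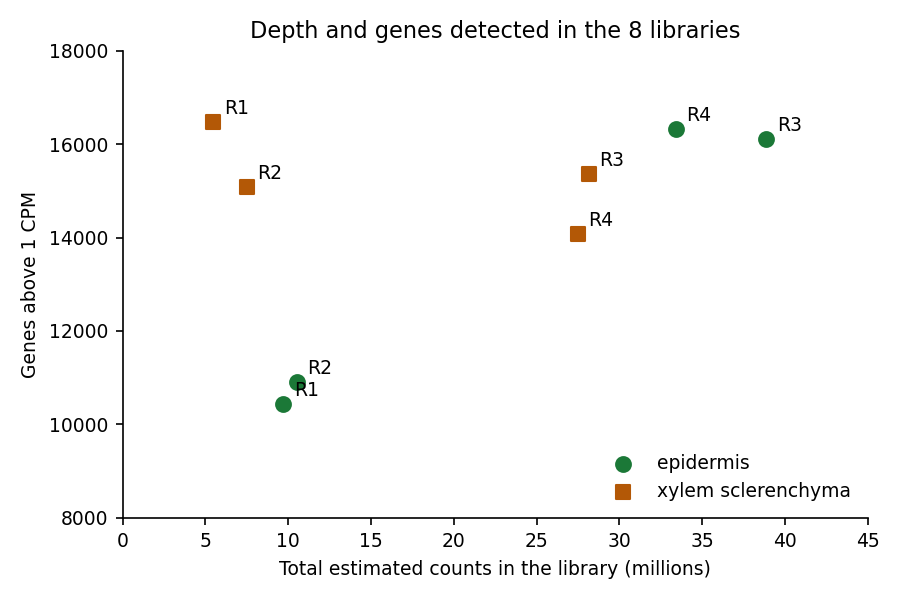
Total estimated counts (x axis) and genes above 1 CPM (y axis, not starting at 0) for each epidermis library (circles) and xylem sclerenchyma library (squares), labelled by replicate number. Epidermis replicates 1 and 2 sit near 10439 and 10911 genes, below the other 6 libraries, while xylem replicates 1 and 2 have fewer counts and more genes.

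The concentration of counts in a few genes differed by less than the spread between libraries. The 10 genes with the most counts took 10.7% ± 2.28 of an epidermis library and 10.5% ± 1.96 of a xylem sclerenchyma library (SD, n = 4; exact permutation p = 0.886). The number of genes that together held 50% of the counts was 747 ± 145 and 792 ± 198 (SD, n = 4; exact permutation p = 0.714). Detection overlapped widely. A gene was counted as detected if 3 or more of the 4 libraries exceeded 1 CPM. Both types detected 10630 genes, which was 88.4% of those detected in epidermis and 75% of those detected in xylem sclerenchyma. A further 1396 were detected in epidermis alone and 3550 in xylem sclerenchyma alone. Of these, 130 had no counts in any xylem library and 257 had none in any epidermis library. Which type had more such genes differed between the replicates, in a comparison chosen after seeing the data that asked for more than 1 CPM in both libraries of a type. Within replicates 1 and 2, 815 genes met this in epidermis alone and 6649 in xylem sclerenchyma alone. Within replicates 3 and 4 the numbers were 3643 and 1398.

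Which genes differed between the 2 types was tested with edgeR over 19502 genes, in a fit of all 20 laser capture libraries. A total of 1093 genes differed, 5.6% of those tested, at a Benjamini-Hochberg adjusted p under 0.05 and a log2 fold change of at least 1. Of these, 442 were higher in epidermis (2.27% of genes tested) and 651 were higher in xylem sclerenchyma (3.34%). At an unadjusted p under 0.05 there were 3990 genes. The labels give 4 biological replicates from 4 plants. The p-values rest on a spread between replicates estimated over all 20 laser capture libraries, not over the 8 of this pair alone. Over all genes tested the median log2 fold change, epidermis over xylem, was -0.17. The libraries of the 2 types did not overlap in CPM for 397 of the 442 and 517 of the 651. Over all genes tested, 6.09% had every epidermis library above every xylem library and 7.92% had the reverse. The calls used these same libraries, which favours genes without overlap. Without epidermis replicates 1 and 2, 656 genes were called, 293 higher in epidermis and 363 higher in xylem sclerenchyma. Which side was larger depended on the fit. The 8 libraries fitted alone gave 415 and 285, and limma voom with quality weights gave 1099 and 979. Of the calls over 20 libraries, the 8 alone kept 313 of the 442 and 254 of the 651, with 14 and 135 not tested there.

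**Figure D2:**
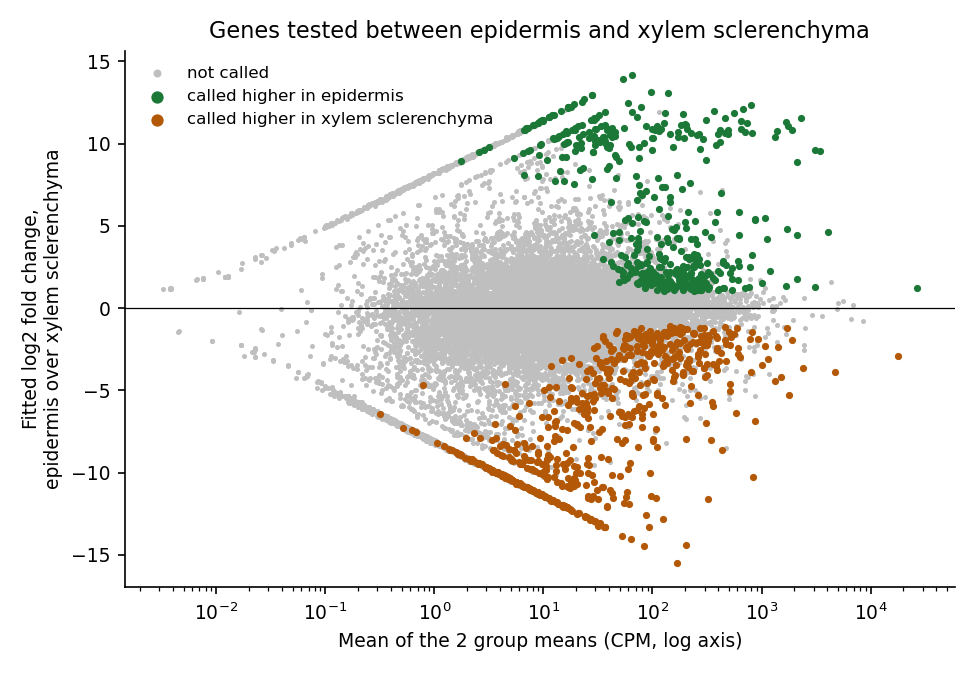
Mean of the epidermis and xylem sclerenchyma group means in CPM (x axis, log scale) against the fitted log2 fold change, positive when epidermis is higher (y axis), for the 19502 genes tested. The 442 genes called higher in epidermis and the 651 called higher in xylem sclerenchyma are coloured; the diagonal edges are genes with no counts in one type, whose fitted fold depends on depth.

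Calls became more frequent with level. Of genes with a mean under 1 CPM over the 8 libraries, 0.298% were called, and of the 68 genes with a mean of 1000 CPM or more, 47.1% were. The median standard error of the log2 fold change fell from 2.45 in the former to 0.55 in the latter. For most genes the data set only wide bounds on the difference. The 95% interval of the fold lay within 2-fold in either direction for 420 genes, 2.15% of those tested, and within 4-fold for 3152, or 16.2%. Both counts include genes with no counts in any of the 8 libraries, whose fitted log2 fold change and standard error were set at 0. They therefore overstate how many genes were closely bounded. A gene that was not called can therefore still differ by a large factor.

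Among called genes there were graded differences and near on-off ones. In epidermis, 244 of the 442 genes (55.2%) were also detected in xylem sclerenchyma. These had a median log2 fold change of 2.15, or 4.43-fold, with quartiles of 1.53 and 3.14. Their median level was 272 CPM in epidermis and 51.9 CPM in xylem sclerenchyma. The remaining 198 were not detected in xylem sclerenchyma, had a median of 76.5 CPM in epidermis, and included 34 genes with no counts in any xylem library.

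In the fit of 20 libraries the xylem side held more genes of the second kind. The fit of the 8 libraries alone, with 415 genes higher in epidermis and 285 higher in xylem sclerenchyma, was not split in this way. Of the 651 xylem genes, 231 (35.5%) were also detected in epidermis, with a median log2 fold change of 2.49 in size, or 5.61-fold. Their median levels were 234 CPM in xylem sclerenchyma and 40.4 CPM in epidermis. The other 420 were not detected in epidermis, had a median of 24.8 CPM in xylem sclerenchyma, and included 178 genes at 0 in all 4 epidermis libraries. With genes at 0 set to a floor of 3 counts per library, the median log2 difference was 4.59 for the epidermis genes and 5.45 for the xylem genes, against fitted medians of 4.70 and 7.21. Of the 651 xylem genes, the epidermis libraries had 210, 244, 266 and 302 above 1 CPM in replicates 1 to 4, so replicates 1 and 2 lay lowest here too. In epidermis replicates 3 and 4 alone, 256 of the 651 were above 1 CPM in both, and 199 were at 0 in both.

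The called genes were mostly present in every library of the higher type. Of the 442 genes, 423 (95.7%) were above 1 CPM in all 4 epidermis libraries, and of the 651, 500 (76.8%) were in all 4 xylem libraries. Over all genes above 1 CPM in any library of the type, the shares in all 4 were 40.8% in epidermis and 58.2% in xylem sclerenchyma. Calling from these same libraries favours genes present in all 4, so the shares of called genes are a description. The called genes also differed in level, with medians of 193 CPM in epidermis and 55.5 CPM in xylem sclerenchyma, and these shares were not tested against each other. No epidermis gene drew more than 90% of its summed CPM from 1 library, and 38 xylem genes did. The library with the highest value was epidermis replicate 1 for 171 genes and replicate 4 for 64, and among xylem genes it was replicate 4 for 231 and replicate 3 for 98.

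Several of the genes that held the most counts were among those that differed. CPM does not correct for transcript length, so it ranks genes by their share of the counts and not by molecules. The gene with the most counts in epidermis stood at 37480 ± 13926 CPM there and at 15885 ± 2165 CPM in xylem sclerenchyma (SD, n = 4 each), where it ranked the second. It was higher in epidermis with a log2 fold change of 1.23 (SE 0.26; edgeR adjusted p = 0.00679). The gene that ranked the second in epidermis was at 7865 ± 5226 CPM there and 325 ± 157 CPM in xylem sclerenchyma, a log2 fold change of 4.61 (SE 0.56; edgeR adjusted p = 6.5e-05). The fourth was at 6871 ± 6751 CPM in epidermis, with libraries from 492 to 15409, and at 8.83 ± 11.7 CPM in xylem sclerenchyma. Its log2 fold change was 9.58 (SE 1.26; edgeR adjusted p = 0.000233), and it averaged 173 CPM in whole stem. The third and the fifth, at 7453 ± 3565 and 6519 ± 2542 CPM in epidermis, had log2 fold changes of 0.20 and 1.57 and were not called (edgeR adjusted p = 0.865 and 0.0507).

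In xylem sclerenchyma the gene with the most counts was at 31741 ± 5112 CPM, compared with 4276 ± 2622 CPM in epidermis (SD, n = 4 each). The log2 fold change, epidermis over xylem, was -2.89 (SE 0.43; edgeR adjusted p = 0.000374). Its 4 xylem libraries, from 26083 to 38469 CPM, spanned a narrower range than the libraries of the leading epidermis gene, from 20148 to 51131. The gene at rank 4 in xylem sclerenchyma was at 8893 ± 2243 CPM there and at 589 ± 569 CPM in epidermis, with a log2 fold change of -3.91 (SE 0.75; edgeR adjusted p = 0.00414). The third and the fifth, with log2 fold changes of -0.81 and -0.63, were not called. Of the 100 genes with the highest mean CPM in each type, 35 were shared. Among the epidermis 100, 44 were called higher in epidermis and 2 higher in xylem sclerenchyma. Among the xylem 100, 28 were called higher in xylem sclerenchyma and 4 higher in epidermis. These genes were chosen by their level in one type, which favours calls in that direction, and calls were frequent at high levels in general, as given above, against 2.27% and 3.34% of all genes tested.

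As groups, the called genes made up a substantial part of each transcriptome. The genes were chosen for this difference, so their shares in the 2 types are a description. The 442 epidermis genes held 25.6%, 26.1%, 22.2% and 16% of the counts in epidermis replicates 1 to 4. They held 3.93%, 4.26%, 3.54% and 3.52% in xylem sclerenchyma replicates 1 to 4. Epidermis replicate 4 lay lowest of its group and above every xylem library. The 651 xylem genes held 16.9%, 14.5%, 16.1% and 17% of the xylem sclerenchyma libraries and 1.64%, 2.19%, 1.87% and 3.23% of the epidermis libraries, with epidermis replicate 4 highest of its group. Over epidermis replicates 3 and 4 alone the mean shares were 19.1% for the epidermis genes and 2.55% for the xylem genes.

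The rule for naming genes picked, in each direction, the largest fitted folds among called genes with no overlap between the libraries of the types and a mean of 10 CPM or more in the higher one. It was met by 394 genes higher in epidermis and 462 higher in xylem sclerenchyma, and the first 2 of each are given. In epidermis the first was Sobic.005G175600, at 75.9, 32.4, 142 and 265 CPM in replicates 1 to 4 and at 0 counts in all 4 xylem sclerenchyma libraries. All 4 epidermis libraries carried it, with the deeper replicates 3 and 4 higher than 1 and 2. Had each xylem library held 3 counts, the mean would be 0.291 CPM. Against this floor the epidermis mean of 129 ± 102 CPM (SD, n = 4) was 444-fold higher (edgeR adjusted p = 0.0123 between the types). Without epidermis replicate 4 this ratio was 287-fold. Such ratios leave out the spread between libraries. The floor covers counting error only, and zeros also occurred within a type for genes reaching 10 CPM, as given above.

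The other epidermis gene was Sobic.010G275100, at 96.5, 83.5, 175 and 74.5 CPM in replicates 1 to 4 and at 0 counts in all 4 xylem sclerenchyma libraries. Its 4 epidermis libraries were closer together, with replicate 3 the highest. The epidermis mean of 107 ± 46.1 CPM (SD, n = 4) was 370-fold higher than the same floor (edgeR adjusted p = 0.00718 between the types). Outside the pair it was at 0 in all 4 pith parenchyma libraries and had 2 counts over the 4 vascular parenchyma libraries. In phloem it was at 7.35 CPM in replicate 3 and at 0 in the other 3 libraries, and it averaged 2.61 ± 0.639 CPM in whole stem (SD, n = 4). Sobic.005G175600 was at 0 in all 4 phloem libraries, at 17.9 CPM in pith parenchyma replicate 2 and at 0 in the other 3 pith libraries. It had 3 counts over vascular parenchyma and averaged 14.9 ± 11 CPM in whole stem (SD, n = 4). Lower levels in whole stem than in epidermis cannot be told apart here as fewer cells of that type or less RNA per cell.

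In xylem sclerenchyma the first gene was Sobic.002G322900, at 422, 253, 250 and 420 CPM in replicates 1 to 4 and at 0 counts in all 4 epidermis libraries. Its xylem mean of 336 ± 98.2 CPM (SD, n = 4) was 1767-fold above the epidermis floor of 0.19 CPM (edgeR adjusted p = 0.000203 between the types). Its counts were not confined to xylem sclerenchyma. Its level was 1320 ± 296 CPM in vascular parenchyma and 278 ± 124 CPM in phloem (SD, n = 4 each), and in pith parenchyma 3 of 4 libraries were at 0. Vascular parenchyma libraries, from 1058 to 1733 CPM, all lay above the xylem sclerenchyma ones, while phloem libraries, from 159 to 453 CPM, overlapped them.

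The second was Sobic.001G112200, at 189, 17.8, 39.5 and 423 CPM in xylem sclerenchyma replicates 1 to 4 and at 0 counts in all 4 epidermis and all 4 pith parenchyma libraries. The xylem libraries were far apart, with replicates 2 and 3 low and replicate 4 high. The mean of 167 ± 186 CPM (SD, n = 4) was 879-fold above the floor (edgeR adjusted p = 0.0114 between the types), and 431-fold without xylem sclerenchyma replicate 4. It too had its highest mean in vascular parenchyma, 680 ± 623 CPM, with 15.7 ± 21.9 CPM in phloem and 22.6 ± 18.9 CPM in whole stem (SD, n = 4 each). Its call was lost in limma voom with quality weights (adjusted p = 0.135) and without epidermis replicates 1 and 2 (edgeR adjusted p = 0.0563), and within replicates 3 and 4 (edgeR adjusted p = 0.181). The fitted log2 fold changes there were -12.23, -14.50 and -15.51, against -14.44, although fitted folds against a group at 0 depend on depth and method.

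**Figure D3:**
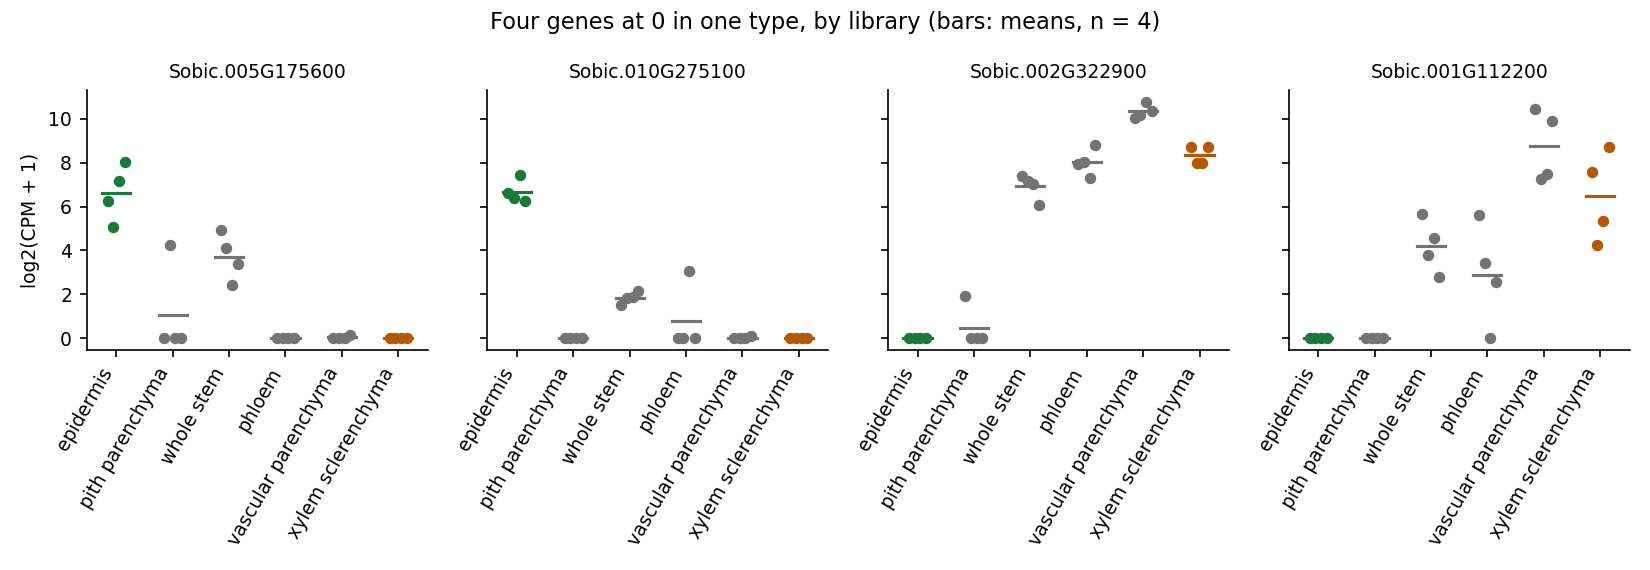
Levels of the 4 named genes as log2(CPM + 1) (y axis) in each library of the 6 groups (x axis), with a bar at the mean of the 4 libraries. The first and second panels are high in epidermis and at 0 in xylem sclerenchyma; the other two are at 0 in epidermis and highest in vascular parenchyma.

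The other groups shared the called genes unequally. Of the 651 xylem genes, 135 passed the low count filter only with the other cell types in the fit, and so did 14 of the 442 epidermis genes. That favours counts in those types. The 442 epidermis genes held 9.46% ± 0.922 of the counts in pith parenchyma, 6.92% ± 0.992 in whole stem, 3.75% ± 0.663 in vascular parenchyma and 3.57% ± 0.294 in phloem (SD, n = 4 each). Each pith library, at 8.58% or more, lay above every vascular parenchyma and phloem library, of which the highest was 4.55%. For the xylem genes pith parenchyma came last. The 651 genes held 18.1% ± 0.944 of vascular parenchyma, 12.9% ± 1.08 of phloem, 8.22% ± 0.837 of whole stem and 5.26% ± 0.721 of pith parenchyma (SD, n = 4 each). Their share in vascular parenchyma, from 16.7% to 18.7%, overlapped that in xylem sclerenchyma itself.

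The comparison was also made gene by gene. On the log2(CPM + 1) scale, vascular parenchyma was nearer to epidermis than to xylem sclerenchyma for 25 of the 442 epidermis genes (5.66%) and for 71 of the 651 xylem genes (10.9%), against 33.8% of all genes tested. Pith parenchyma was nearer to epidermis for 182 of the 442 (41.2%) and for 435 of the 651 (66.8%), against 48.9% of all genes tested. Nearness used the same epidermis and xylem sclerenchyma libraries that the genes were called from. That choice can itself move the shares away from those of all genes, so they are a description. With epidermis replicates 3 and 4 alone, vascular parenchyma was nearer to epidermis for 6.11% of the epidermis genes and 13.7% of the xylem genes. Pith was nearer for 41.9% and 69.1%. The shares of all genes tested were then 35.1% for vascular and 53.8% for pith parenchyma. In whole stem, 415 of the 442 epidermis genes (93.9%) and 643 of the 651 xylem genes (98.8%) were detected, against 91.9% of all genes tested. Phloem detected 252 of the epidermis genes (57%) and 585 of the xylem genes (89.9%), against 73.9% of all genes tested.

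**Figure D4:**
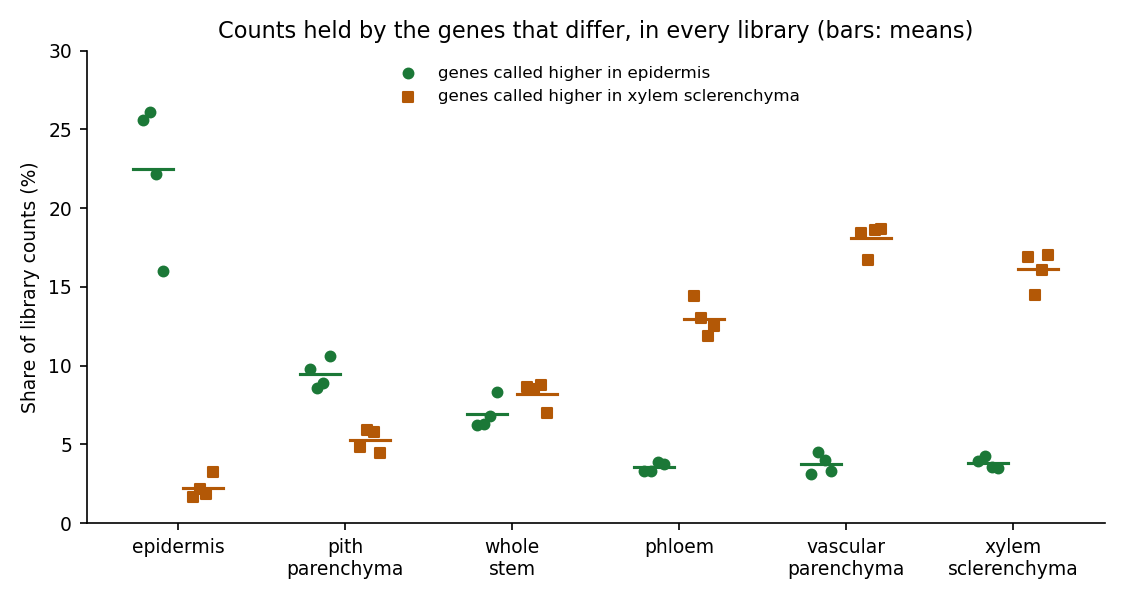
Share of each library's counts in percent (y axis) held by the 442 genes called higher in epidermis (circles) and the 651 called higher in xylem sclerenchyma (squares), for the 4 libraries of each group (x axis), with bars at the means. Epidermis genes run from 16% to 26.1% in epidermis and 3.13% to 4.55% in vascular parenchyma; xylem genes run from 16.7% to 18.7% in vascular parenchyma, overlapping xylem sclerenchyma.

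Whether the same genes also differed between other stem tissues was asked in vascular against pith parenchyma, a contrast taken from the same fit. Its fold compares neither epidermis nor xylem sclerenchyma libraries. The low count filter, the scaling and the spread behind its p-values do use them, so its calls are not independent of those between epidermis and xylem sclerenchyma. Without epidermis replicates 1 and 2 this contrast called 1903 of 21525 genes, against 1398 of 19502. Over all 19502 genes, 4.21% were called higher in vascular parenchyma and 2.96% higher in pith parenchyma in edgeR's test. These shares were not matched for level. Between epidermis and xylem sclerenchyma, calls became more frequent with level, as given above. Of the 651 xylem genes, 296 (45.5%) were called higher in vascular parenchyma and 8 (1.23%) higher in pith. Their median log2 fold change, vascular over pith, was 3.41, with quartiles of 1.00 and 6.44, compared with 0.00 over all genes. Of the 442 epidermis genes, 96 (21.7%) were called higher in pith and 6 (1.36%) higher in vascular parenchyma, with a median of -0.79 and quartiles of -2.66 and 0.29. Not called in either direction were 347 of the xylem genes and 340 of the epidermis genes. Of the 651 and the 442, 135 and 14 did not pass the low count filter on the 8 libraries alone. These were tested because of counts in the other cell types, which favours expression there. When 1 library was left out, only the contrast that held it was refitted, and calls of the other contrast were kept from all 20 libraries. The count of 296 was 188 of 401 xylem genes when epidermis replicate 3 was left out. Without pith parenchyma replicate 4 it was 191 of 651, where 403 of 20214 genes were called higher in vascular parenchyma. It was 240 of 363 without epidermis replicates 1 and 2, against 1160 of 21525 genes. The count of 96 was 62 of 295 and 59 of 268 without xylem sclerenchyma replicates 1 and 4. It was 54 of 293 without epidermis replicates 1 and 2, against 743 of 21525 genes higher in pith.

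**Figure D5:**
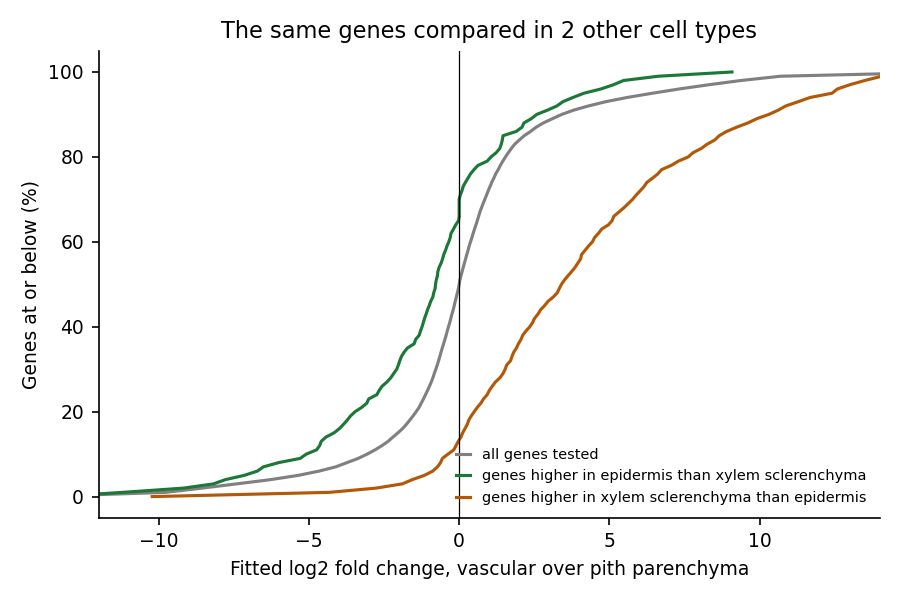
Cumulative percentage of genes (y axis) against the fitted log2 fold change of vascular parenchyma over pith parenchyma (x axis), for all 19502 genes tested and for the genes called higher in epidermis or in xylem sclerenchyma. The curve of xylem genes lies to the right, with a median of 3.41, and that of epidermis genes to the left, with a median of -0.79.

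How far the differences held across replicates was examined within replicates 1 and 2 and within replicates 3 and 4, each with 2 libraries per type. Within the former, edgeR called 114 genes higher in epidermis and 767 higher in xylem sclerenchyma, together 4.49% of 19634 tested. Within the latter it called 21 and 56, together 0.377% of 20450 tested. The sets share no library, but the labels do not tie replicate numbers to plants, so they may share plants. The direction carried over for every epidermis gene that could be compared. It held for 112 of 112 called within replicates 1 and 2 and for 18 of 18 called within replicates 3 and 4, with the remaining genes not tested in the other set. Genes higher in xylem sclerenchyma within replicates 3 and 4 kept their direction in 56 of 56 cases. Of the 767 within replicates 1 and 2, 620 (80.8%) kept it. Over all genes tested the median log2 fold change was -0.609 within replicates 1 and 2 and 0 within replicates 3 and 4. The share of all genes that kept their direction between the sets was not computed.

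The sizes carried over less well on the xylem side. The 767 genes had a median log2 fold change of -10.64 in replicates 1 and 2, where they were called, and of -1.44 in replicates 3 and 4. The 114 epidermis genes had medians of 7.08 and 5.91. The 56 xylem genes called within replicates 3 and 4 had a median of -9.89 there and of -4.49 in replicates 1 and 2. For the 21 epidermis genes called within replicates 3 and 4 the medians were 9.81 and 7.72. Calling genes within 1 set favours large folds in that set, so smaller medians in the other set are a description. Of the 767, 192 were also called over all 4 replicates. The difference of the contrast between the sets was also tested directly in edgeR. At an adjusted p under 0.05 and a log2 difference of at least 1 in size, 164 genes were called, 0.841% of 19502 tested. At an unadjusted p under 0.05 alone there were 2503. Epidermis replicates 1 and 2, the libraries with few detected genes, are one side of this contrast, and their part in it was not tested.

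Single libraries changed how many genes were called. Leaving out each of the 8 libraries in turn kept 204 of the 442 epidermis genes and 314 of the 651 xylem genes called in all 8 omissions. The total of 1093 was 663 without epidermis replicate 3. The epidermis count of 442 was then 262, and it was 277, 290 and 268 without xylem sclerenchyma replicates 2, 3 and 4. The xylem count of 651 was 401 without epidermis replicate 3.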

How the data were processed

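The authors deposited one table of estimated counts, without normalization, in which 10.5% of values were not whole numbers. Salmon is named in the submitters' processing notes together with FastQC and alevin; for versions, transcript index and genome build, the sources used here give nothing. Per the labels' protocols, libraries were made with a SMART-Seq v4 kit and sequenced as single reads of 150 bp. No molecular identifiers are named, so floors cover counting error only. The handling of reads shared between near-identical copies is not described, so genes with such copies are uncertain.

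The expected counts were rounded and tested in R 4.3.3 with edgeR 4.0.16 (filterByExpr, TMM, robust quasi-likelihood F test) over the 20 laser capture libraries, without a replicate block, with Benjamini-Hochberg adjustment over 19502 genes. Standard errors were obtained as the absolute log2 fold change over the root of the F statistic. Alternatives used DESeq2 1.42.0, limma 3.58.1, other filters and scalings, thinning and omission of libraries; the test was tried on simulated data. Exact permutation tests used scipy 1.17.1.

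The reference gene table matched 0 of 34117 identifiers, so the gene lists, cell type markers and promoter motifs that had been planned were not used, and the naming rule gave 2 identifiers per direction: called, libraries not overlapping, at least 10 CPM in the higher type, largest fitted fold. The comparison, rules and lists were chosen with earlier results of these data known. Replicate numbers were not treated as pairs: the labels do not tie them to plants. Same-group libraries differed far beyond sampling noise, so each counted as 1 replicate.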

Additional observations from a re-analysis of the deposited data

Results flagged for a closer look

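In 46 groups of 4 libraries examined, 6 had a library far from the other 3, by Dixon's criterion. For values that vary smoothly, chance meets it in about 1 of 20 groups. The share of counts held by the genes called higher in xylem sclerenchyma was 6.97% in whole stem replicate 4, below the 8.51% to 8.76% of the other 3 whole stem libraries. The remaining 5 were named genes seen in 1 library of a group, where the criterion is met by construction and that rate does not apply. Sobic.005G175600 was at 17.9 CPM in pith parenchyma replicate 2 and at 0.112 CPM in vascular parenchyma replicate 4. Sobic.010G275100 was at 7.35 CPM in phloem replicate 3 and at 0.0745 CPM in vascular parenchyma replicate 4. Sobic.002G322900 was at 2.81 CPM in pith parenchyma replicate 1. The other 3 libraries were at 0 in each of these 5 cases.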

How the results depend on the processing

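The number of genes called depended on the tool, the libraries in the fit and the replicate block. DESeq2 called 2713 genes (1008 higher in epidermis, 1705 in xylem sclerenchyma) and limma voom with quality weights 2078 (1099 and 979); the cause was not tested. The 8 libraries alone gave 700, of which 285 were higher in xylem sclerenchyma. Replicates 1 and 2 alone gave 114 higher in epidermis, and replicates 3 and 4 alone gave 77 in total (21 and 56). Without epidermis replicates 1 and 2 there were 656 (293 and 363). Omitting 1 library gave 663 to 1060 in total, 262 to 404 higher in epidermis and 401 to 686 higher in xylem sclerenchyma. Of the xylem genes of each fit, those higher in vascular than in pith parenchyma numbered 744 of 1705 with DESeq2 and 554 of 979 with limma voom. They were 33 of 767 within replicates 1 and 2 and 33 of 56 within replicates 3 and 4. Omitting 1 library gave 188 to 274, with only the contrast that held the library refitted. Over all genes tested, 1751 and 2127 of 19502 were called higher in vascular parenchyma with DESeq2 and limma voom. Within the 2 pairs of replicates they were 41 of 19634 and 114 of 20450. The epidermis genes higher in pith numbered 309 of 1008, 299 of 1099, 1 of 114 and 2 of 21 under the same settings. Without epidermis replicates 1 and 2 they were 54 of 293. Omitting 1 library gave 59 to 94, again with only the contrast that held the library refitted. Over all genes tested, 1346, 1966, 5 and 48 were called higher in pith under those settings, and 743 without epidermis replicates 1 and 2. With RLE factors, no low count filter, a minimum of 10 CPM, the replicate sets as a covariate or thinned counts, each of these counts was within 1.5 times its reported value.

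The labels give replicates the same numbers in each type. They do not tie these numbers to plants, so the numbers were not taken as pairs. Deviations from the group mean correlated at -0.0135, 0.0135, 0.0768 and -0.0434 between same-numbered libraries. Libraries of one type differed too widely for such values to show whether the numbers are pairs. With the replicate block, 866 genes were called over the 20 libraries, and 329 (205 and 124) over the 8 alone.

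The difference in genes above 1 CPM kept its sign and stayed within the spread under a level of 5 CPM, thinning and each omission; with 3 libraries against 4 the exact test cannot reach 0.05. Calls of Sobic.005G175600 and Sobic.010G275100 were lost within either pair of replicates, with fitted log2 fold changes of 11.94 and 15.34 against 14.16 for the former and of 12.68 and 14.66 against 13.90 for the latter. For most genes the spread between libraries left wide intervals. At equal depth, 1392 genes were called.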

Other observations

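Genes that differed were sometimes neighbours in the order of the identifiers. In that order over the genes tested, 43 of the 442 genes higher in epidermis (9.73%) stood directly beside another gene called in the same direction, in 20 runs of which the longest had 4 genes. Of the 651 genes higher in xylem sclerenchyma, 77 (11.8%) did so, in 37 runs, also with a longest run of 4. Over all 19502 genes tested, 4.44% stood beside a gene called higher in epidermis and 6.57% beside one called higher in xylem sclerenchyma. The differences from these shares were not tested. Whether such genes are close copies that share reads was not tested.

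Calls were spread over all 10 identifier series. The share of tested genes called higher in epidermis ran from 1.84% in the series Sobic.004 to 2.71% in Sobic.006, and the share called higher in xylem sclerenchyma ran from 2.6% in Sobic.006 to 3.99% in Sobic.004. The 2 series thus stood at opposite ends of both orders. These shares were not tested against each other.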
